A study of Homo sapiens with 2 samples.

Results

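The genes described here carried the mark Down in a TCF4 signature and had at least 1 TCF4 peak in TMD8. TMD8 is an established human lymphoma line of the activated B cell-like (ABC) subtype of diffuse large B cell lymphoma. Members were all gene names with that mark in the authors' deposited peak table, which gave 46 genes with 116 peaks out of 275 genes with 661 peaks. The mark is an annotation of the gene and not a value of these libraries, while the comparison behind Down was not given in the sources used here. Another 229 genes were marked Up. TMD8 cells without a TCF4 copy number gain carried a tetracycline-inducible TCF4 construct, and 1 TCF4 immunoprecipitate (ChIP) library and 1 whole cell extract (input) library were made after 60 ng/ml doxycycline for 24 hours. Both libraries came from induced cells, so the input shared the construct and the drug, and binding without induction was not analysed here. With 1 library of each kind no value has a replicate error, and intervals cover the counting error of reads only. The table lists bound signature genes only, and of 5 B cell, 4 T cell and 4 myeloid marker genes it named none, so the cell type label could not be checked.

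TCF4, also called E2-2, is a basic helix-loop-helix factor of the E protein family. E proteins bind as dimers to E-box motifs, with the letters CANNTG, and are antagonized by the ID proteins. They are known to activate B lineage genes and can also recruit corepressors of the ETO family, and TCF4 is known for its role in plasmacytoid dendritic cells and late B cell stages. Enrichment is given throughout as the fold, the ratio of ChIP to input reads in a peak after the authors' scaling between libraries, with a 95% exact interval.

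Of the 46 genes, 5 had a peak in the authors' promoter class, which reaches 2000 bp from a transcription start site (TSS): IFITM1, LMO2, FAM49A, CD46 and SYTL1. SYTL1 encodes a Rab27-binding protein of vesicle traffic. Its peak, at chromosome 1 from 27668324 to 27669109 (hg19), held 147 ChIP and 35 input reads and had a fold of 5.5001 (3.78 to 8.197). By the authors' TSS distance of 215.5 bp and its width of 785 bp, it ran from 177 bp before to 608 bp after the start on the transcript the authors name. Its promoter is shown because this peak spans the start. CD46 and IFITM1 are shown for comparison, with their peaks beginning 603.5 and 954 bp past the start by the same measure. The peaks of LMO2 and FAM49A began nearer, at 90 and 283 bp, but these genes were not among those with a listed promoter window. The sequences are RefSeq promoters of the GRCh38.p14 assembly, a different build from that of the peaks, from 250 bases before to 25 bases after the annotated start, 5′ to 3′ on the plus strand, with E-boxes in capitals.
SYTL1, chr1:27341772-27342046: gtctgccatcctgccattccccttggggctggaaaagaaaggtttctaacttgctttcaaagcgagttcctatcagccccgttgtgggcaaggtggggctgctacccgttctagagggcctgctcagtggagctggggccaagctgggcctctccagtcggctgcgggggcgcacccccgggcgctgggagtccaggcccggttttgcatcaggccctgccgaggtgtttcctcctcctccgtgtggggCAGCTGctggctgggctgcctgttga
CD46, chr1:207751804-207752078: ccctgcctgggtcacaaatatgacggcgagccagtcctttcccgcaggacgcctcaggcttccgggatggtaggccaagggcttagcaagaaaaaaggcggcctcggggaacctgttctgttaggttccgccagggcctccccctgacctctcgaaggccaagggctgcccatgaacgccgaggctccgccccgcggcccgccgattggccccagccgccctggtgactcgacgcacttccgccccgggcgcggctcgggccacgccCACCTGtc
IFITM1, chr11:313790-314064: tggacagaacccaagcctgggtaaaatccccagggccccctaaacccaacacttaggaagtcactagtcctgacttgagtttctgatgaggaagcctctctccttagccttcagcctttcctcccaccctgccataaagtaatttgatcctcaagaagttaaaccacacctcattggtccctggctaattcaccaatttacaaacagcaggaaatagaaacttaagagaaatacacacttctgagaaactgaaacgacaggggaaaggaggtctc
In SYTL1 a CAGCTG began at position -1, across the annotated start. Whether the hg19 start used by the authors is the same one was not checked, so its place within the peak is not given. RefSeq lists CD46 with 2 starts, and the CACCTG began at position 18 from the start shown and at position 34 from the other. In IFITM1 no CANNTG was found in the 300 bases searched.

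Promoter windows were listed for 36 of the 46 genes, some with more than 1 start. CANNTG was present in 40 of their 56 windows (71.4%), against 68.7% of all 35116 windows of the same 300 bases. Among its forms, which CANNTG includes, CAGCTG was in 13 windows (23.2%, against 17.9% of all), CAGGTG or its reverse complement CACCTG in 15 (26.8% against 20.6%), and CAGATG or CATCTG in 7 (12.5% against 14.7%). CANNTG and CAGCTG read the same on both strands. Windows of 1 gene overlap, and 41 of the 46 genes had no peak in the promoter class, so these shares describe promoters and not the bound sites.

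Folds at Down genes ran from 2.62 to 36.01, and over the whole table from 2.14 to 38.6. The median fold was 6.0007, with quartiles of 4.38 and 8.103, against 6.36 (4.51 and 8.73) over all peaks. The lower bound of the fold lay above 2 in 101 of 116 peaks, against 85.5% of all 661 peaks, and above 4 in 45 peaks (38.8%), against 43.9% of all. Peak calling used the same reads, so neither share is a test of enrichment. ChIP reads per Down peak ranged from 26 to 590 with a median of 71, and input reads from 2 to 71 with a median of 17. The 15 peaks with a lower bound of 2 or less included 1 each of TES, PSMB7, VCL, FAM49A, CTSH, MAFF, SLC2A3, CD46, RGS3, DUSP16 and COL6A1, and 2 each of UPP1 and LMO2.

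**Figure D1:**
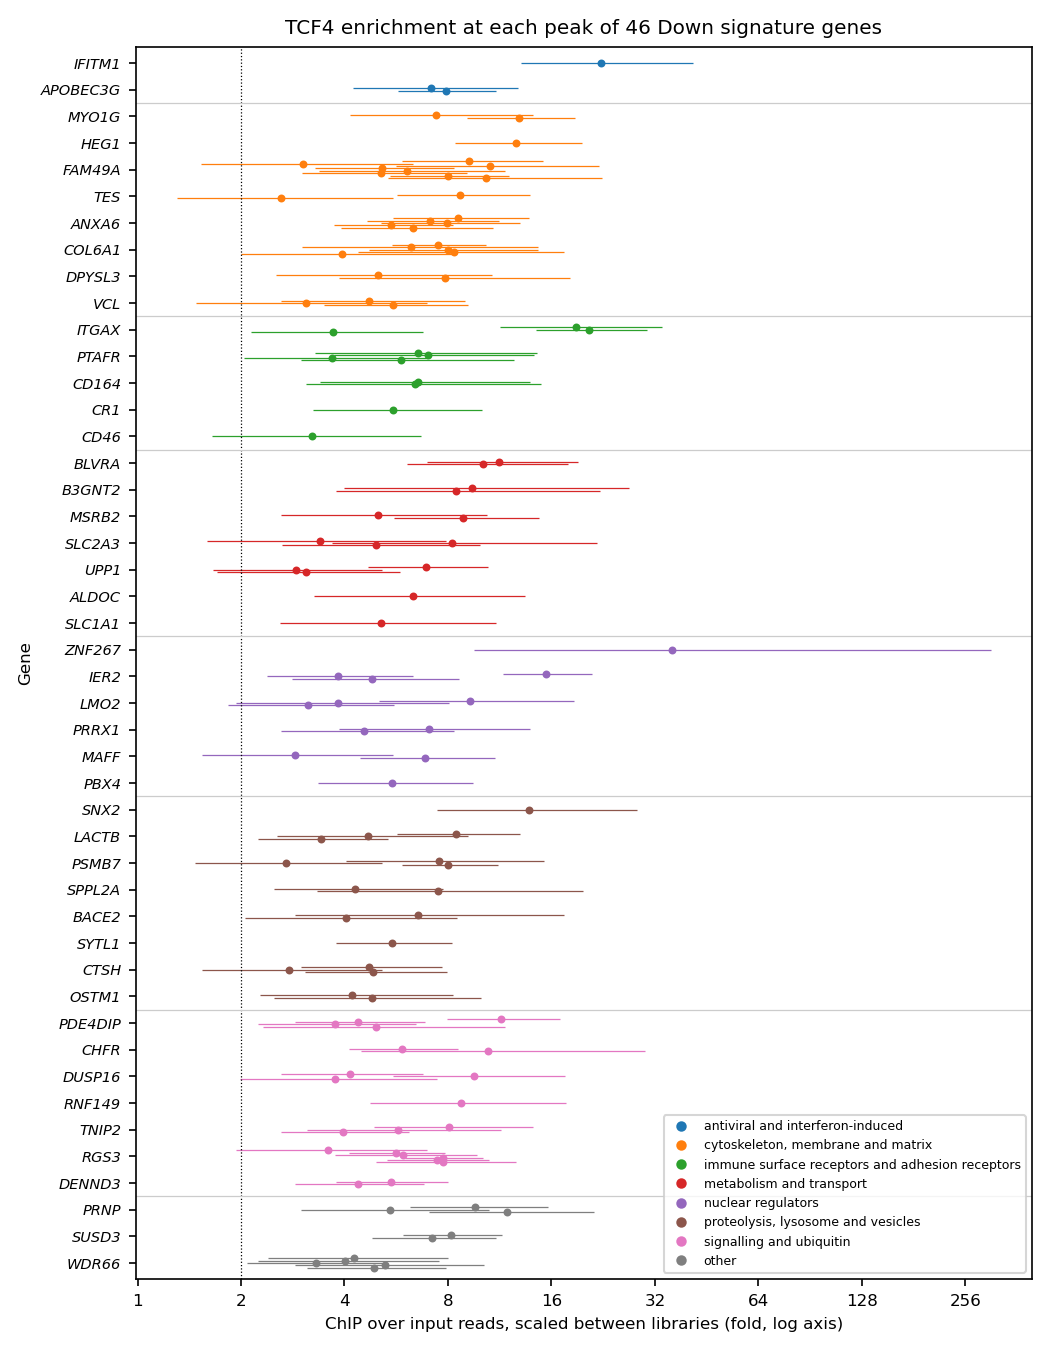
Fold of ChIP over input (log axis) for each of the 116 peaks of the 46 Down genes, with 95% exact intervals of counting error as bars; rows are genes, colours are functional groups, and the dotted line marks a fold of 2. ZNF267, IFITM1 and ITGAX hold the highest folds, and the bar of ZNF267 is the longest because it rests on 2 input reads.

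Most peaks were distant from the start site of the gene the authors name. In the table's position classes, which go by a peak's centre, 56 of the 116 peaks were within the gene (48.3%, 38.9 to 57.7), 30 upstream and 30 downstream, against 52.04% within over the whole table. The promoter class held 5 peaks (4.31%, 1.41 to 9.77), against 5.45% of all. Distance to the TSS had a median of 28.4 kb against 39.3 kb over all peaks. Over 100 kb from the TSS lay 11 peaks (9.48% against 19.5%), and within 10 kb lay 27 (23.3% against 17.7%). All peaks were within the gene in 14 genes, while 15 genes had no peak within it, 6 of which had upstream and 7 downstream peaks only. The classes refer to the gene the authors name, so a peak outside it may lie in another gene. Exons, introns, other genes under a peak and distances to the start sites of other genes were not determined, since an hg19 annotation was not used here. The nearest peak of an Up gene was at least 200.5 kb from every Down peak, that from UMPS to HEG1.

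**Figure D2:**
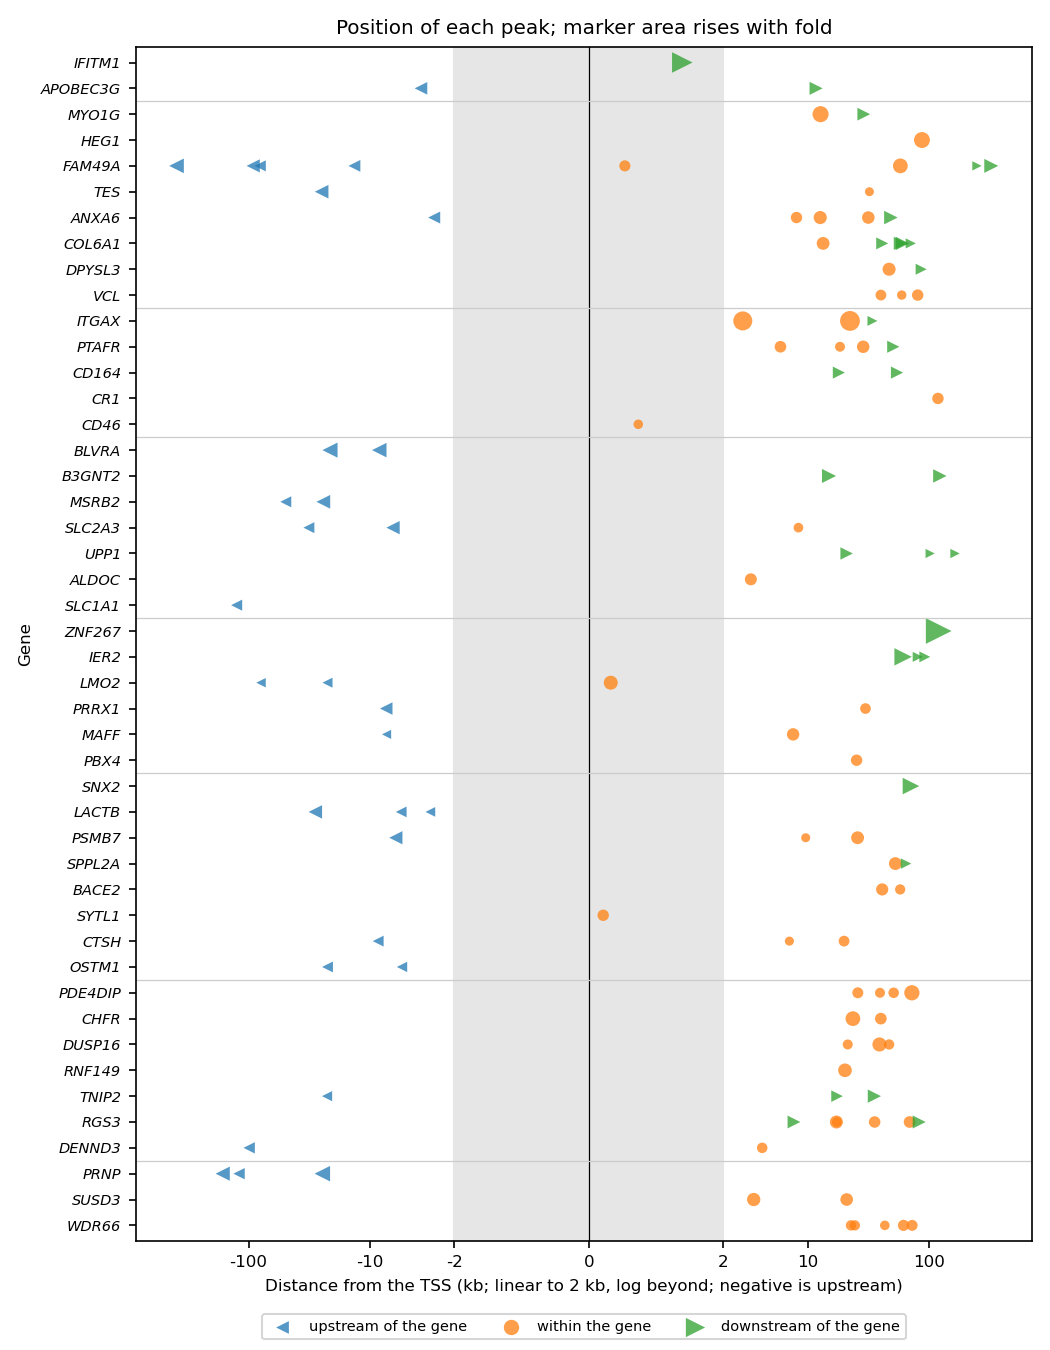
Distance of each peak from the TSS in kb (linear to 2 kb, log beyond, negative upstream) for the 46 Down genes, as the authors measured it to the transcript they name; the marker shape gives the position class, its area rises with the fold, and grey shading marks the 2 kb around the TSS. The shaded band holds 5 peaks, and FAM49A spreads over both sides of its start.

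Receptors of the immune cell surface included the most enriched of the genes with several peaks. ITGAX encodes CD11c, the alpha chain of a beta-2 integrin that myeloid cells, dendritic cells and some B cells carry. Its 2 intragenic peaks held 230 and 503 ChIP against 16 and 32 input reads. Their folds were 18.8 (11.3 to 33.5) at 2.902 kb from the TSS and 20.6 (14.4 to 30.4) at 22.3 kb. The latter, at chromosome 16 from 31387951 to 31389601, was 1650 bp wide and ranked 11th of 661 by the authors' normalized log2 ratio. A further peak downstream of the gene, with 51 ChIP and 18 input reads, had 3.71 (2.13 to 6.75), and its interval did not overlap those of the other 2. In RefSeq order ITGAX lies between the related integrin genes ITGAM and ITGAD, neither of which the table named.

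PTAFR, the receptor of platelet-activating factor, had 4 peaks over 62.4 kb. Their folds ran from 3.68 (2.04 to 6.98) to 6.98 (3.74 to 14.2), with 45 to 64 ChIP and 10 to 16 input reads each, and 3 of them were within the gene. CR1 and CD46 encode regulators of complement, which bind its C3 fragments, and their single peaks were the closest pair of different Down genes, 137.5 kb apart on chromosome 1. At CR1 the fold was 5.55 (3.24 to 10.04), from 72 ChIP against 17 input reads, 119 kb into the gene. CD46 had 32 and 13 reads, a fold of 3.22 (1.65 to 6.69) and a peak of 267 bp, 737 bp from the TSS, so its enrichment was not resolved from 2-fold at this depth. CR1L, a close relative of CR1, lies between both genes in RefSeq order. CD164, a sialomucin of haematopoietic cells, had 2 peaks, both downstream of the gene, of 6.55 (3.39 to 13.9) and 6.402 (3.08 to 14.9).

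Genes of antiviral defence had 3 peaks, none with its centre within the gene. IFITM1, an interferon-induced membrane protein that restricts virus entry, had the second highest fold of the Down genes, 22.3 (13.01 to 41.3), from 238 ChIP and 14 input reads. The peak, at chromosome 11 from 315026 to 315901, had its centre 109.5 bp past the end of this short gene and its near edge inside it. IFITM1 has IFITM2 and IFITM3 as neighbours. APOBEC3G, a cytidine deaminase that restricts retroviruses, had peaks of 7.16 (4.24 to 12.8) upstream and 7.89 (5.74 to 11.1) downstream, the latter 1359 bp wide with 271 ChIP and 45 input reads. Its neighbours are APOBEC3F and APOBEC3H. Both families hold similar sequences, and the treatment of reads that match several copies was not given in the sources used here. That limit holds for every other gene with similar copies elsewhere, and which Down genes have such copies was not determined. Of 42 names in a list of interferon-induced genes, the table named IFITM1 alone, and APOBEC3G was not on that list.

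Nuclear regulators showed the widest span of folds, but only through the single peak of ZNF267. Their next highest fold, 15.5 at IER2, was below the 20.6 at ITGAX among the immune receptors. ZNF267, a zinc finger gene, had the highest value, 36.01 (9.51 to 305), but from 55 ChIP and 2 input reads. Its interval therefore took in the folds of IFITM1, ITGAX and IER2. By the authors' normalized log2 ratio ZNF267 had 4.61, against 4.38 for IFITM1. The ZNF267 peak lay 121 kb from the TSS, downstream of the gene. LMO2, a LIM-domain adaptor of haematopoietic transcription complexes and a marker of germinal centre B cells, had its strongest peak at the promoter. This peak, at chromosome 11 from 33913226 to 33913701, 327.5 bp from the TSS, held 85 ChIP and 12 input reads and had 9.28 (5.04 to 18.7). Upstream, LMO2 had 3.82 (1.94 to 8.08) at 22.3 kb and 3.14 (1.83 to 5.59) at 78.9 kb, both with a lower bound under 2. LMO2 was the sole member that the table named of 26 germinal centre B cell names. Of 31 B lineage transcription factors it was the sole one marked Down, with 6 marked Up, out of 46 Down and 229 Up genes.

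IER2, an immediate early gene induced by growth signals, had 1 strong and 2 weak peaks, all downstream. The strong peak, at chromosome 19 from 13321644 to 13323416, held 590 ChIP reads, the most of any Down peak, and 50 input reads, and its fold was 15.5 (11.6 to 21.1). It lay 61.3 kb from the TSS and was 1772 bp wide. The others, at 80.9 and 92.6 kb, had 70 and 66 ChIP reads and folds of 3.82 (2.37 to 6.35) and 4.802 (2.82 to 8.59). All 3 lay on the side of CACNA1A, the next gene in RefSeq order, so the name IER2 is the authors' assignment across that distance. Whether these peaks lie inside CACNA1A was not determined.

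The remaining nuclear regulators had folds under 8. MAFF, a small Maf basic leucine zipper factor, had 6.86 (4.45 to 10.99) within the gene and 2.86 (1.54 to 5.54) upstream, at nearly the same distance from the TSS, 7.56 and 7.25 kb. PRRX1, a homeobox factor known from mesenchymal cells, had 7.05 (3.87 to 13.9) upstream and 4.54 (2.61 to 8.32) within the gene. PBX4, a homeobox factor of the PBX family, had 1 intragenic peak of 5.5001 (3.35 to 9.46).

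Signalling and ubiquitin genes had 15 of 21 peaks within the gene, against 52.04% over the whole table. RGS3 and PDE4DIP gave 4 each of these and DUSP16 3, and peaks of 1 gene are not independent. RGS3, a regulator of G protein signalling, had 6 peaks over 196.8 kb, 4 within and 2 downstream of the transcripts named. RGS3 folds ran from 3.58 (1.94 to 6.96) to 7.74 (4.95 to 12.6). Of these 6 peaks, 3 were 1546 to 1700 bp wide, of which that at chromosome 9 from 116344165 to 116345711 held 419 ChIP and 71 input reads. DUSP16, a phosphatase of the JNK and p38 kinases, had 3 intragenic peaks, of which the middle one had 9.52 (5.52 to 17.6) and the flanking ones 4.14 (2.61 to 6.77) and 3.74 (1.99 to 7.45). TNIP2, which binds the NF-kB inhibitor A20, had 8.08 (4.88 to 14.1) and 5.74 (3.11 to 11.4) downstream and 3.97 (2.62 to 6.17) upstream. TNIP2 was the sole Down gene among 31 names of NF-kB signalling.

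PDE4DIP, the centrosomal and Golgi scaffold myomegalin, had 4 intragenic peaks. That at chromosome 1 from 144859533 to 144860176 held 288 ChIP and 33 input reads and had 11.4 (7.96 to 16.9). The other 3 had folds of 3.74 to 4.95 with 34 to 97 ChIP reads. DENND3, an exchange factor for Rab12, had 5.45 (3.79 to 8.03) upstream and 4.37 (2.88 to 6.802) within the gene. CHFR and RNF149 encode ubiquitin ligases, CHFR that of a mitotic checkpoint. CHFR had a narrow peak of 10.5 (4.48 to 29.96), with 6 input reads, and a 1574 bp peak of 5.88 (4.13 to 8.54), both within the gene. RNF149 had 1 intragenic peak of 8.73 (4.73 to 17.6).

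The 8 genes of the cytoskeleton, membrane and matrix had 28 peaks, the most of any group, of which FAM49A alone had 8. FAM49A, now named CYRIA, encodes a protein that binds active RAC1 and restrains actin protrusion, and its 8 peaks spread over 722.02 kb of chromosome 2. The strongest were 10.6 (5.64 to 21.99) within the gene, 10.3 (5.34 to 22.4) at 394 kb upstream and 9.23 (5.88 to 15.2) at 328 kb downstream. Its promoter peak, 537.5 bp from the TSS, was weaker, with 98 ChIP and 25 input reads and 5.13 (3.28 to 8.31). Among the rest, upstream folds were 6.08, 5.09 and 7.98, and the weakest was 3.02 (1.53 to 6.31) downstream. FAM49A was the sole gene that the table named of 31 names of cell migration and adhesion, a list without VCL and TES. The distant peaks of FAM49A lay on the side of RAD51AP2 upstream and of MYCN downstream, in RefSeq order.

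ANXA6, a calcium-dependent membrane-binding annexin, had 5 peaks with 97 to 157 ChIP reads and folds in a narrow range, from 5.48 (3.72 to 8.27) to 8.57 (5.55 to 13.8). Its peak 2928.5 bp upstream of the TSS was 276 bp wide and had a ChIP density, the authors' reads per length, of 8.07, above the 4.203 to 4.37 of the others. COL6A1, a chain of collagen VI, had the widest peak of the whole table, 2700 bp within the gene, with 7.46 (5.51 to 10.3). The other 4 peaks of COL6A1 were downstream, on the side of COL6A2, with folds of 3.93 to 8.33. MYO1G, a class I myosin of haematopoietic cells, had 12.9 (9.08 to 18.8) within the gene, from 344 ChIP and 35 input reads, and 7.39 (4.15 to 14.1) downstream.

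HEG1, a transmembrane receptor of endothelial junctions, was the only Down gene on chromosome 3, where the table placed 60 genes. Its single peak, at chromosome 3 from 124686724 to 124687669, held 250 ChIP and 26 input reads and had 12.6 (8.39 to 19.7). TES, a LIM protein of focal adhesions, had 8.695 (5.69 to 13.8) upstream and 2.62 (1.298 to 5.55) within the gene, the latter the lowest fold among Down peaks, from 26 ChIP and 13 input reads. VCL, which encodes the focal adhesion protein vinculin, had 3 intragenic peaks of 3.095 to 5.52. DPYSL3, a cytoskeletal protein of the collapsin response mediator family, had 7.86 (3.85 to 18.1) within the gene and 5.0001 (2.53 to 10.8) downstream.

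Proteolysis, lysosome and vesicle genes had the lowest median fold of the groups, 4.802 over 17 peaks. CTSH, a lysosomal cysteine protease and the sole Down gene among 26 names of antigen presentation, had 4.71 (2.999 to 7.67) and 2.76 (1.54 to 5.15) within the gene and 4.86 (3.07 to 7.97) upstream. SPPL2A, an intramembrane protease known to cleave the invariant chain CD74 in B cells, had 7.48 (3.32 to 19.8) within the gene and 4.29 (2.497 to 7.73) downstream. OSTM1, the partner of a lysosomal chloride transporter, had 4.21 (2.27 to 8.303) and 4.802 (2.49 to 9.99) upstream. SNX2, a retromer sorting nexin, stood above these with a single downstream peak of 13.8 (7.44 to 28.4), from 116 ChIP and 11 input reads. That peak lay 71.1 kb from the TSS and 11593 bp past the end of SNX2, whose neighbours are SNCAIP and SNX24. PSMB7, a catalytic subunit of the proteasome, had 8.03 (5.86 to 11.2) upstream, and 7.53 (4.05 to 15.3) and 2.696 (1.47 to 5.13) within the gene. LACTB, a mitochondrial protein related to bacterial beta-lactamases, had 3 upstream peaks, of 8.44 (5.69 to 12.96) at 28.1 kb, 4.68 (2.55 to 9.16) at 5.48 kb and 3.42 (2.24 to 5.36) at 3.15 kb. Of these the peak farthest from the TSS was the strongest. BACE2, an aspartic protease related to beta-secretase, had 6.55 (2.87 to 17.5) and 4.04 (2.06 to 8.505) within the gene.

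Metabolic enzymes and transporters had 14 peaks. Of these 2 were within the gene named for the peak, that of ALDOC and 1 of SLC2A3, against 52.04% over the whole table. BLVRA, which reduces biliverdin to bilirubin, had 2 upstream peaks of like strength, 11.2 (6.97 to 19.1) and 10.1 (6.07 to 17.8). The second, at chromosome 7 from 43789828 to 43789978, was 150 bp wide, the minimum of the table, and had the highest ChIP density of the Down peaks, 20.1, with an input density of 1.99 against a median of 0.543 over Down peaks. B3GNT2, which extends poly-N-acetyllactosamine chains, had 9.39 (3.98 to 26.98) and 8.42 (3.77 to 22.1) downstream, from 6 and 7 input reads. MSRB2, a mitochondrial methionine sulfoxide reductase, had 8.85 (5.58 to 14.7) and 5.02 (2.62 to 10.4) upstream. SLC2A3, the glucose transporter GLUT3, had 8.23 (3.68 to 21.7) and 4.94 (2.64 to 9.92) upstream and 3.405 (1.59 to 7.91) within the gene. UPP1, a uridine phosphorylase, had 3 downstream peaks whose folds were 6.89 (4.67 to 10.5) at 20.9 kb, 2.88 (1.66 to 5.16) at 102 kb and 3.08 (1.71 to 5.796) at 164 kb from the TSS. ALDOC, a glycolytic aldolase, had 6.31 (3.26 to 13.4) within the gene. SLC1A1, a glutamate and cysteine transporter, had 5.12 (2.596 to 11.01) at 125 kb upstream.

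No Down gene was among 31 names of B cell receptor signalling, 15 of plasma cells or 25 of lipid and sterol metabolism. In these lists the table marked 3, 1 and 1 Up, out of 229 Up and 46 Down genes. Counts this small do not tell Down from Up. Of 20 T cell and 14 myeloid names the table held none. The lists are not complete, and the myeloid one leaves out ITGAX. Absence from a list therefore does not show that a role is missing. The last 3 genes fell outside the functional groups. PRNP, the prion protein gene, had upstream peaks only, of 11.9 (7.07 to 21.3) at 24.6 kb, 5.43 (2.99 to 10.5) at 119.8 kb and 9.62 (6.203 to 15.6) at 164 kb, the last of which kept 169 ChIP and 23 input reads that far out. SUSD3, a sushi-domain membrane protein, had 2 wide intragenic peaks of 8.18 (5.94 to 11.5) and 7.18 (4.81 to 11.1). WDR66, now CFAP251, a protein of cilia and flagella, had 5 intragenic peaks with folds from 3.298 (2.08 to 5.36) to 5.24 (2.88 to 10.2). The first 2 of WDR66 were 1285 bp apart, the smallest gap between peaks of 1 Down gene.

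Of the 46 genes 11 had 1 peak, 16 had 2, 12 had 3 and 7 had 4 or more, a mean of 2.52 ± 1.47 (SD, 46 genes) against 2.403 ± 1.74 over all 275 genes. Neighbouring peaks of a Down gene were a median of 18.2 kb apart, from 1.28 to 301.8 kb, against 25.7 kb over the table. In 23 of the 35 Down genes with several peaks the strongest was also the widest (65.7%, against 54.5% of 167 such genes in the table with a TSS distance). It was the one nearest the TSS in 16 (45.7%, against 34.7%). Both shares depend on how many peaks a gene has, which was not allowed for. Among genes with several peaks, 7 of 35 Down genes had 4 or more, against 51 of 169 in the table.

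Whether the peaks of 1 gene differed in enrichment was tested on their reads. A chi-square test of ChIP against input reads over a gene's peaks was run for all 169 genes with 2 or more peaks and adjusted by the Benjamini-Hochberg method. Of the 35 Down genes tested 7 passed an adjusted p of 0.05, against 20.1% of all 169, a share near that of the whole table. An unadjusted p under 0.05 was reached by 11 Down genes, the other 4 being MAFF, LMO2, DUSP16 and FAM49A. The test compares reads of these 2 libraries and not conditions, and the smallest expected count in a Down gene was 5.36.

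IER2 and ITGAX differed most clearly, with adjusted p of 9.29e-07 each in the chi-square test. In IER2 the first peak was above the other 2, and in ITGAX the downstream peak was below both intragenic ones, with no overlap of intervals. PDE4DIP (adjusted p of 0.00325) had 1 peak of 11.4-fold beside 3 under 5-fold. TES (adjusted p of 0.013) and PSMB7 (adjusted p of 0.018) each had 1 narrow peak, of 284 and 322 bp, with a fold under 3. LACTB (adjusted p of 0.0327) and UPP1 (adjusted p of 0.0461) had 1 stronger peak, and UPP1 missed the threshold in a likelihood ratio test (adjusted p of 0.0514). At the other end, the 5 peaks of ANXA6, the 5 of WDR66 and the 6 of RGS3 had adjusted p of 0.723, 0.806 and 0.324 in the chi-square test, and such values do not show that their peaks were alike.

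**Figure D3:**
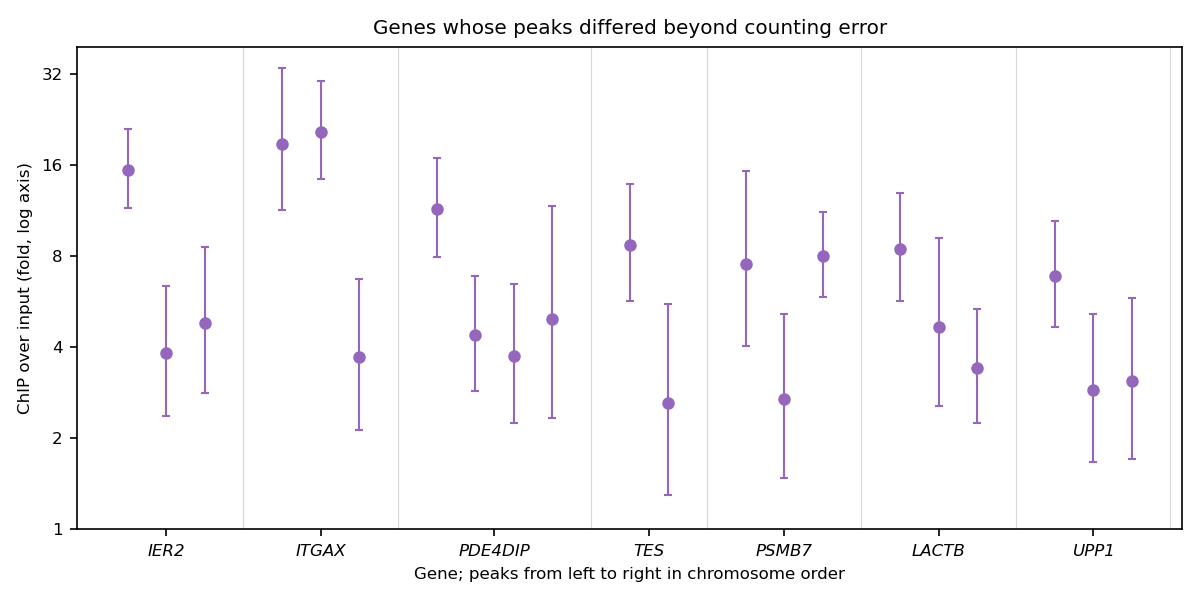
Fold of ChIP over input (log axis) for each peak of the 7 Down genes that passed the test, in chromosome order from left to right within a gene, with 95% exact intervals of counting error. IER2 has 1 peak at 15.5 above 2 under 5, and ITGAX 2 peaks above 18 and 1 at 3.71.

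Width moved with these folds. Across the 116 peaks, which share 2 libraries and the authors' calling, Spearman's rho between width and fold was 0.56, against 0.62 over all 661 peaks. The 15 Down peaks over 1000 bp had a median fold of 7.98 and a median input density of 0.460, and the 15 of 350 bp or less had 3.095 and 0.885. The narrow ones were those of ANXA6, BLVRA, CD46, CTSH, FAM49A, LMO2, MAFF, PSMB7, SLC2A3, TES and VCL, with 2 each of PDE4DIP and UPP1. In 6 of the 7 genes that passed the test the strongest peak was also the widest, LACTB being the exception. The part of width in these differences was not tested.

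**Figure D4:**
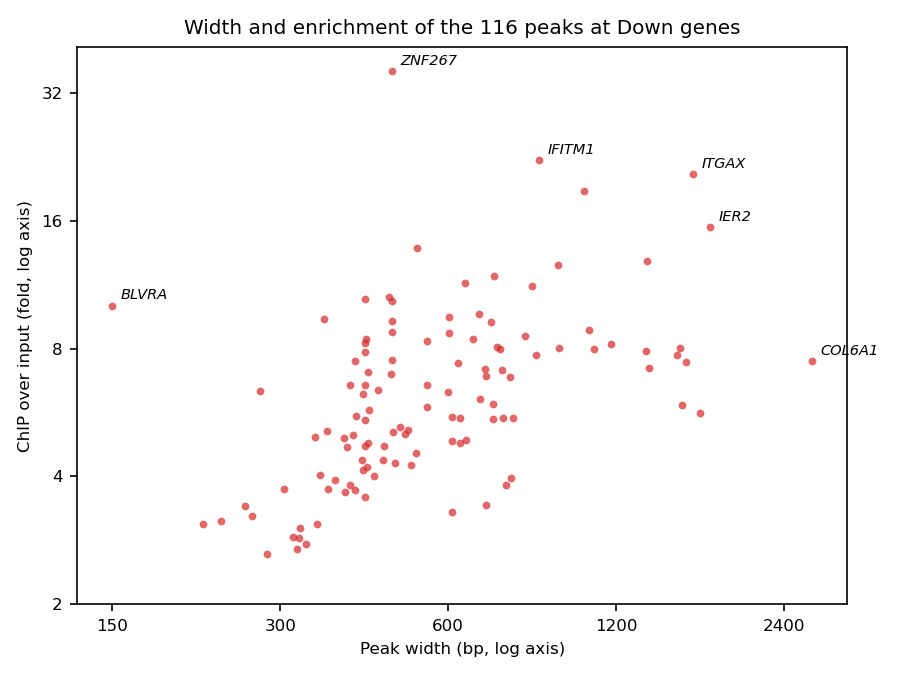
Peak width in bp against the fold of ChIP over input (both log axes) for the 116 peaks at Down genes, 1 point per peak. BLVRA at 150 bp lies above other narrow peaks, ZNF267 is highest at 475 bp, and the widest peak, of COL6A1 at 2700 bp, has 7.46-fold.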

How the data were processed

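The authors deposited 1 table of TCF4 peaks at signature genes in hg19 coordinates. The submitters' processing notes list BWA, GATK and hg19 without saying what each did, and a peak caller was not given in the sources used here. Spike-in chromatin was added, per the labels' protocols, and its use in scaling was not stated. Per the file headers, the authors deposited whole-number read counts of ChIP and input per peak, a log2 ratio and its normalized form, a signal (read density) per library, and −log10 p-values, which were not used. The column lettered IC was taken as the input, the only other library. The fold was ChIP over input reads times 1.31, the constant between the authors' deposited log2 ratios, with no pseudocount, and a Clopper-Pearson interval at the 95% level. The deposited normalized ratios are lower than the log2 of this fold, most so where input reads are few. PCR copies are not independent, so intervals may be too narrow. The peaks held 71988 ChIP and 12661 input reads. 1 interval listed on 2 lines was counted once. Distances, measured from a peak's centre, and classes are the authors'. Of 46 names 44 matched a RefSeq symbol and 2 an older name. The chi-square test used scipy 1.17.1 and was tested on simulated data. Members, lists and functional groups were chosen with earlier results of these data known. Genes named in full have a promoter peak, 1 of the 10 highest scores, 4 or more peaks, peaks that differ, or membership of a list, and the rest are given by role and fold.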

Additional observations from a re-analysis of the deposited data

How the results depend on the processing

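Of the alternative settings, 10 kept a Down value within the set limits and 5 moved it beyond them. The comparison with the whole table was recomputed only for the strongest peak of each gene, with a median fold of 8.13 against 8.25. The count of Down peaks with a lower bound above 2 was 101, and 82 to 100 under a 99% interval, without library scaling or without peaks of 200 bp or less. Of the 7 genes whose peaks differed, all 7 were called again with at least 10 input reads per peak and without peaks of 200 bp or less. The width limit removed no peak of these genes, and the read limit only took PDE4DIP from 4 peaks to 3. These repeat calls were therefore nearly fixed beforehand and say little about robustness. In the likelihood ratio test 6 were called, and UPP1 was lost. The median fold of 6.0007 became 8.13 with the strongest peak of each gene, 8.33 over the 53 peaks in the upper part of the table, split at its median score, and 7.11 with the peak nearest the TSS, and the promoter share of 4.31% became 10.3% in a 5000 bp window. Peaks per gene fell from 2.52 to 1.56 in that upper part. These selections raise or lower the values by construction, except the nearest peak, for which the cause was not tested. The intragenic share went from 48.3% (38.9 to 57.7) to 39.6% in the higher-scoring part of the table. No paired analysis was possible because only 1 ChIP and 1 input library were made. Few reads limit ZNF267, with 2 input reads (9.51 to 305-fold), and the 15 peaks whose interval reached 2.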
